A study of Ovis aries with 91 samples.

Results

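The genes ENSOARG00000014874 and ENSOARG00000018367 are Ensembl sheep gene IDs whose RNA was higher in the right atrial appendage (RAA) than in the left (LAA). They are 2 of 13803 gene IDs listed over 3 deposited tables, and both are listed and above the minimum mean level in each table. Both were selected on their left minus right differences in these same samples, so those differences are given as a description with no test. Neither ID is paired with a gene name in the files or in the reference table used here, so neither is given a name, a role or a sequence.

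The study sequenced RNA of sheep atria. Fibrillation, in which the atria beat fast and without order, was brought on with an implanted device that paced the right atrium rapidly. Appendages were taken as whole tissue and as isolated cardiomyocytes, and the posterior left atrium as whole tissue. Appendage groups were control, transition and chronic, with 3 sheep each and both sides from every sheep. Control sheep S3 and S4 are labelled sham. For C1 the condition label is control, while the table columns and some titles call it sham, and it was counted with the controls. The labels do not say whether any control sheep carried a pacing device. In whole tissue the transition sheep were D24, D27 and D30 and the chronic sheep D15, D16 and D19. In cardiomyocytes they were D23, D24 and D27 and D16, D19 and D20, and 7 sheep are in both tables. The posterior left atrium had 6 transition sheep and 6 control sheep, and the word saline stands in the titles of the G-numbered transition sheep. The labels give no age, sex or pacing time, and all sheep share the organism and the library kit.

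The left atrium receives blood from the lungs and the right atrium receives blood from the body's veins, and the chambers take on separate identities in the embryo. Their appendages are muscular pouches, in which cardiomyocytes lie among fibroblasts, vessel cells, nerve endings, fat and immune cells. Whole tissue carries the RNA of all of these, while a preparation of isolated cardiomyocytes is meant to hold the muscle cells alone. The posterior left atrium is the wall around the openings of the pulmonary veins, where fibrillation often starts.

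Libraries held 6241967 to 22382458 recovered reads in whole tissue and 5305524 to 12434418 in cardiomyocytes. ENSOARG00000014874 had 84 to 2018 reads per library in whole tissue and 29 to 235 in cardiomyocytes. ENSOARG00000018367 had 38 to 2007 reads per library in whole tissue and 61 to 711 in cardiomyocytes. The lowest of these, 29 reads in the LAA cardiomyocytes of D23, has an exact 95% Poisson interval of 19.4 to 41.6 reads, which covers counting error only. For the posterior left atrium no read numbers could be had. The labelled tissues and cell type could not be checked against marker genes, since no ID is paired with a name.

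In whole tissue both genes were higher in the RAA than in the LAA of all 9 sheep, and no LAA value of either gene reached its RAA values. A limma fit over the whole table called 5.34% of genes higher on the right, and 324 genes (2.63%) were higher on the right in every sheep. Because the genes were chosen by this difference, nothing is read from these shares. In bulk samples fewer cells of a type and less RNA per cell cannot be told apart. Levels are deposited log2 CPM values, which are reads scaled to the size of the library, and means are over sheep with their SD. ENSOARG00000014874 in the LAA had 2.86 in S3, 3.46 in S4 and 3.59 in C1 among controls. Its LAA values were 4.96 in D24, 3.95 in D27 and 4.14 in D30 among transition sheep, and 4.89 in D15, 5.63 in D16 and 3.96 in D19 among chronic sheep. All 6 paced sheep lay above the 3 controls on the left. In the RAA the gene had 7.12 in S3, 7.13 in S4 and 6.19 in C1 among controls. RAA values of the paced sheep were 6.43 in D24, 6.34 in D27 and 6.28 in D30, and 6.44 in D15, 6.66 in D16 and 6.88 in D19. The paced RAA values lay between the lowest and the highest control, and the transition sheep differed by little among themselves (6.35 ± 0.07).

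**Figure D1:**
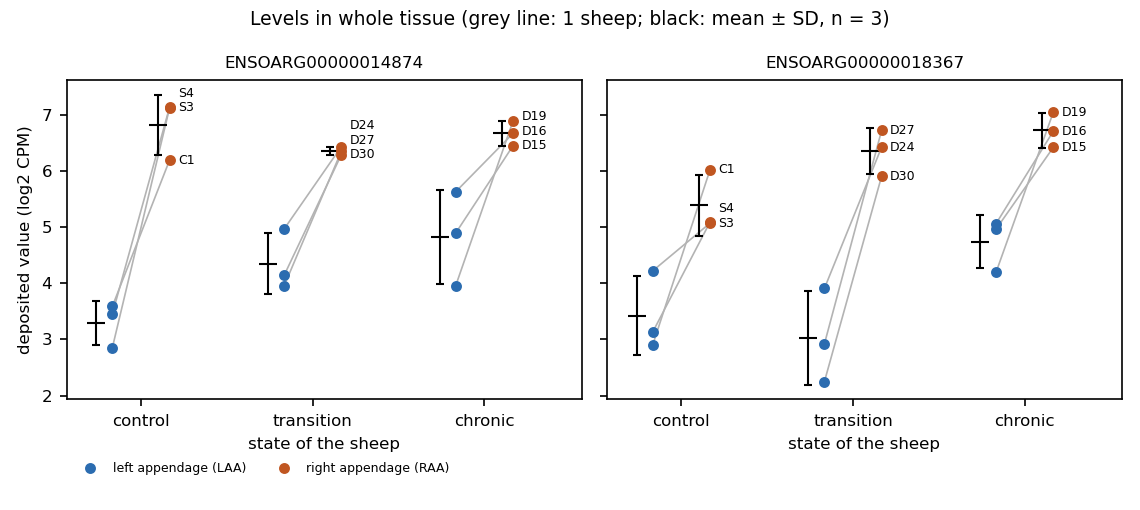
Deposited log2 CPM of each gene in whole tissue of 3 control, 3 transition and 3 chronic sheep, with LAA points in blue, RAA points in orange, a grey line joining the sides of a sheep, and the mean ± SD in black. Every line climbs from left to right, and the LAA points of ENSOARG00000014874 lie lowest in control sheep (3.30 ± 0.39).

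LAA minus RAA of ENSOARG00000014874 in whole tissue averaged −3.51 ± 0.84 in control, −2.0 ± 0.48 in transition and −1.84 ± 0.98 in chronic sheep on the log2 scale. As ratios of RAA to LAA these means are 11.4, 4.01 and 3.57. Over all 9 sheep the difference averaged −2.45 ± 1.06 and ran from −4.27 in S3 to −1.04 in D16. It ranked 7 among 12333 genes when these are ordered by how far the right side exceeded the left.

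ENSOARG00000018367 in LAA whole tissue had 4.22 in S3, 3.13 in S4 and 2.90 in C1 among controls. Its LAA values were 3.91 in D24, 2.92 in D27 and 2.25 in D30 among transition sheep, and 4.96 in D15, 5.06 in D16 and 4.20 in D19 among chronic sheep. On the left the control and transition sheep overlapped, and the chronic sheep D19 lay just below the highest control, S3. In the RAA the gene had 5.07 in S3, 5.08 in S4 and 6.01 in C1 among controls. RAA values of the paced sheep were 6.42 in D24, 6.72 in D27 and 5.90 in D30, and 6.42 in D15, 6.70 in D16 and 7.04 in D19. All 3 chronic sheep lay above all 3 controls on the right, while the transition sheep D30 lay below the control C1. The sides came closest at 5.06 in the LAA of D16 and 5.07 in the RAA of S3.

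LAA minus RAA of ENSOARG00000018367 in whole tissue averaged −1.97 ± 1.13 in control, −3.32 ± 0.70 in transition and −1.98 ± 0.76 in chronic sheep. The ratio of RAA to LAA is 3.92 in control and 3.95 in chronic sheep, and its widest mean difference was in transition sheep, whereas that of ENSOARG00000014874 was in controls. Over all 9 sheep it averaged −2.42 ± 1.02, from −3.80 in D27 to −0.85 in S3, and ranked 8 among the 12333 genes.

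In isolated cardiomyocytes ENSOARG00000018367 was higher in the RAA of all 9 sheep, as in whole tissue, while for ENSOARG00000014874 the side difference was smaller on average and was not found in all sheep. In this table limma called 11.3% of genes higher on the right, and 538 genes (4.38%) were higher on the right in every sheep. ENSOARG00000014874 in LAA cardiomyocytes had 1.99 in S3, 3.64 in S4 and 3.24 in C1 among controls. The LAA values of the paced sheep were 1.64 in D23, 2.70 in D24 and 2.53 in D27 in transition, and 3.06 in D16, 3.24 in D19 and 2.82 in D20 in chronic sheep. In RAA cardiomyocytes it had 3.72 in S3, 3.14 in S4 and 3.69 in C1 among controls, 4.28 in D23, 2.66 in D24 and 3.46 in D27 in transition, and 4.22 in D16, 4.35 in D19 and 3.81 in D20 in chronic sheep. The sides overlapped in control and transition sheep and were apart in chronic sheep.

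LAA minus RAA of ENSOARG00000014874 in cardiomyocytes averaged −0.56 ± 1.12 in control, −1.18 ± 1.36 in transition and −1.08 ± 0.09 in chronic sheep. It was below 0 in 7 of 9 sheep, and the exceptions were S4 at 0.49 and D24 at 0.043. The mean over 9 sheep was −0.94 ± 0.93, a ratio of RAA to LAA of 1.92, and it ranked 304 among 12279 genes. With a pseudocount of 10 CPM the mean was −0.45.

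ENSOARG00000018367 in LAA cardiomyocytes had 4.25 in S3, 2.85 in S4 and 3.54 in C1 among controls. The LAA values of the paced sheep were 4.33 in D23, 3.98 in D24 and 4.01 in D27 in transition, and 4.26 in D16, 4.69 in D19 and 4.30 in D20 in chronic sheep. In RAA cardiomyocytes it had 5.90 in S3, 5.04 in S4 and 6.27 in C1 among controls, 5.86 in D23, 5.92 in D24 and 6.72 in D27 in transition, and 5.80 in D16, 6.15 in D19 and 6.28 in D20 in chronic sheep. Every RAA value lay above every LAA value.

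LAA minus RAA of ENSOARG00000018367 in cardiomyocytes averaged −2.19 ± 0.54 in control, −2.06 ± 0.60 in transition and −1.66 ± 0.28 in chronic sheep. The mean over 9 sheep was −1.97 ± 0.49, a ratio of RAA to LAA of 3.92, and it ranked 15 among 12279 genes. Of the 11796 genes above the minimum in whole tissue and in cardiomyocytes, 86 genes were higher on the right in every sheep of both preparations, among them ENSOARG00000018367 but not ENSOARG00000014874.

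**Figure D2:**
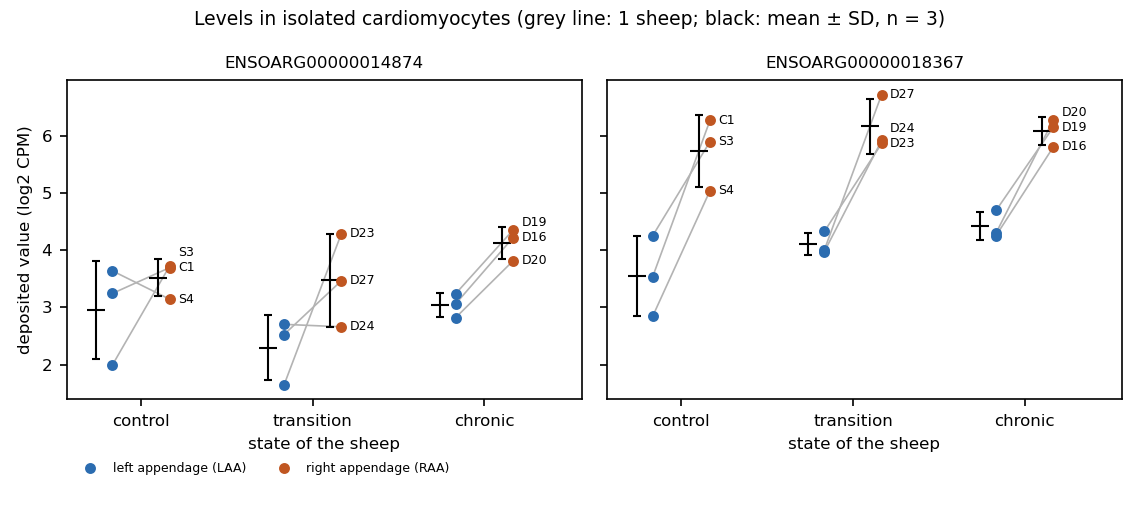
Deposited log2 CPM of each gene in isolated cardiomyocytes of 3 control, 3 transition and 3 chronic sheep, with LAA points in blue, RAA points in orange, a grey line joining the sides of a sheep, and the mean ± SD in black. The lines of ENSOARG00000014874 slope down in S4 and run nearly level in D24, while all 9 lines of ENSOARG00000018367 climb to the RAA.

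**Figure D3:**
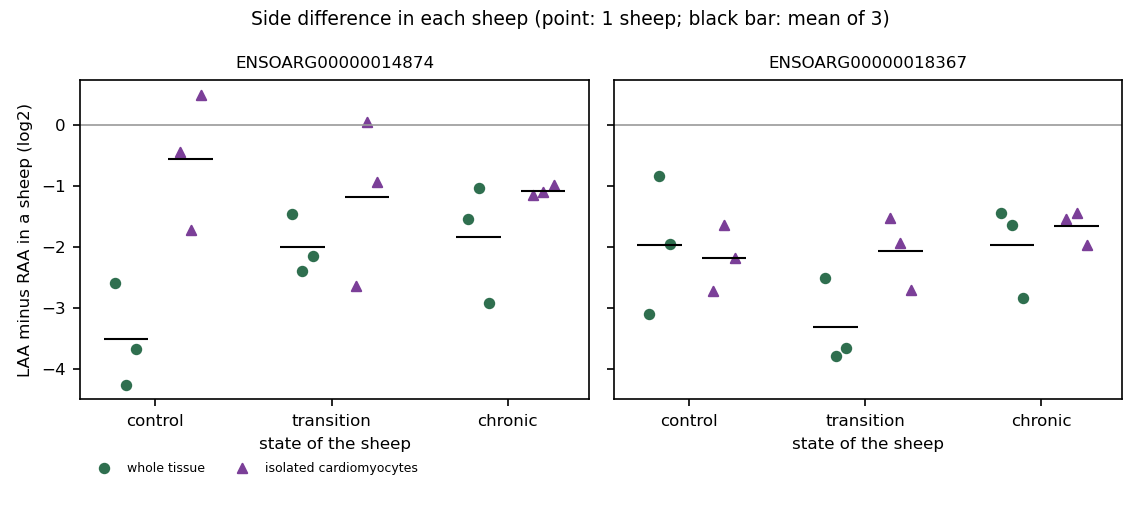
LAA minus RAA in each sheep on the log2 scale, with whole tissue as green circles, cardiomyocytes as purple triangles and the mean of 3 sheep as a black bar. The whole tissue points of both genes lie below 0 in all 9 sheep, and 2 cardiomyocyte points of ENSOARG00000014874, S4 at 0.49 and D24 at 0.043, lie above 0.

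The order of the group means in whole tissue kept all RAA groups above all LAA groups for both genes. For ENSOARG00000014874 it ran RAA control (6.82 ± 0.54), RAA chronic (6.66 ± 0.22), RAA transition (6.35 ± 0.07), LAA chronic (4.83 ± 0.84), LAA transition (4.35 ± 0.54) and LAA control (3.30 ± 0.39). The ranges of RAA control and RAA chronic overlapped, as did those of LAA chronic and LAA transition. For ENSOARG00000018367 the order was RAA chronic (6.72 ± 0.31), RAA transition (6.35 ± 0.41), RAA control (5.39 ± 0.54), LAA chronic (4.74 ± 0.47), LAA control (3.42 ± 0.70) and LAA transition (3.03 ± 0.83). Among its neighbours only RAA control and LAA chronic had ranges that did not overlap.

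In cardiomyocytes the order for ENSOARG00000014874 was RAA chronic (4.13 ± 0.28), RAA control (3.52 ± 0.33), RAA transition (3.47 ± 0.81), LAA chronic (3.04 ± 0.21), LAA control (2.96 ± 0.86) and LAA transition (2.29 ± 0.57). Only its first pair of neighbours, RAA chronic and RAA control, had ranges apart. For ENSOARG00000018367 it was RAA transition (6.17 ± 0.48), RAA chronic (6.08 ± 0.25), RAA control (5.73 ± 0.63), LAA chronic (4.42 ± 0.24), LAA transition (4.10 ± 0.20) and LAA control (3.55 ± 0.70). Its only gap between neighbours lay between the sides, at RAA control and LAA chronic.

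Within a group the sheep varied more for these genes than for most. The SD within groups was 0.50 for ENSOARG00000014874 and 0.57 for ENSOARG00000018367 in whole tissue, higher than that of 81.5% and 86.8% of the 12333 genes. In cardiomyocytes it was 0.57 and 0.46, higher than that of 85.5% and 77.0% of the 12279 genes.

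Changes with the state of the sheep were tested with limma over each whole table, with Benjamini-Hochberg adjustment over all genes and a threshold of 0.05. The genes were picked with earlier results of these samples known, so these tests are not independent evidence. Of 38 tests over both genes, among them the interactions described below, 1 passed. ENSOARG00000014874 rose in the LAA whole tissue of chronic sheep, to 31.6 ± 17.0 CPM against 10.1 ± 2.52 CPM in control sheep (SD, n = 3 each). The change was 1.53 ± 0.39 on the log2 scale (SE, 95% interval 0.71 to 2.34, limma adjusted p = 0.0239), and limma called 7.49% of all genes in this comparison. All 3 chronic sheep lay above all 3 controls, with the lowest chronic value, 3.96 in D19, next to the highest control value, 3.59 in C1. The call was lost without D16 (1.13, adjusted p = 0.0956), without S3 (1.30, adjusted p = 0.0985) and without S4 (1.60, adjusted p = 0.0604).

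The other state changes of ENSOARG00000014874 in whole tissue did not pass. In the LAA of transition sheep the change against control was 1.05 ± 0.39 (95% interval 0.24 to 1.86, adjusted p = 0.205), where 1.49% of genes were called. On the right it was −0.46 ± 0.39 in transition sheep (adjusted p = 0.598, with 0.624% of genes called) and −0.15 ± 0.39 in chronic sheep (adjusted p = 0.893, with 1.26% called). The mean level on the right was 102 ± 15.5 CPM in chronic sheep and 118 ± 38.6 CPM in control sheep.

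Whether the state changed ENSOARG00000014874 by different amounts on the left and the right was fitted as an interaction, which did not pass over all genes. It contrasts between states the same LAA minus RAA values whose average drew attention to the gene, so its estimates serve as a description. The same holds for every other interaction given here, of either gene and in either preparation. The LAA change minus the RAA change was 1.51 ± 0.46 for transition against control (limma adjusted p = 0.348). For chronic against control it was 1.68 ± 0.46 (limma adjusted p = 0.479). Over all genes limma called 0.0243% of genes for the transition interaction and 0% for the chronic one, where 815 genes had an unadjusted p under 0.05 and voom also called 0. Whether a change was confined to the left is not decided by these descriptive estimates.

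ENSOARG00000018367 had estimates above 0 for chronic against control sheep on both sides of whole tissue, and neither passed. The change was 1.32 ± 0.44 in the LAA (95% interval 0.40 to 2.24, p = 0.00771, limma adjusted p = 0.0733) and 1.33 ± 0.44 in the RAA (95% interval 0.41 to 2.25, p = 0.00734, limma adjusted p = 0.152). Without S3 the LAA change passed, at an adjusted p of 0.0400. Its LAA minus RAA interaction for chronic against control, likewise a description, was −0.010 ± 0.52 (limma adjusted p = 0.998). This does not show that the sides changed alike.

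In transition sheep the estimates of ENSOARG00000018367 differed in sign between sides. Against control the change was −0.39 ± 0.44 in the LAA (adjusted p = 0.739) and 0.96 ± 0.44 in the RAA (p = 0.0424, limma adjusted p = 0.312). The interaction was −1.35 ± 0.52 (limma adjusted p = 0.519), which did not pass. Between chronic and transition sheep the LAA change was 1.71 ± 0.44 (95% interval 0.79 to 2.64, p = 0.00112, limma adjusted p = 0.166), and all 3 chronic LAA values, from 4.20, lay above all 3 transition values, up to 3.91. On the right the same change was 0.37 ± 0.44 (adjusted p = 0.962), and the interaction was 1.34 ± 0.52 (limma adjusted p = 1.0).

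For ENSOARG00000014874 the change between chronic and transition sheep was 0.48 in the LAA (adjusted p = 0.693) and 0.31 in the RAA (adjusted p = 0.964), and the interaction was 0.17 (adjusted p = 1.0). Over all genes limma called 0% in each of these 3 comparisons of chronic with transition whole tissue, and voom called 0 as well. In the LAA a pseudocount of 10 CPM called 9 genes, and the fit of each appendage alone called 8. An unadjusted p under 0.05 was reached by 1352 genes in the LAA, 747 in the RAA and 436 for the interaction. Chance alone also yields such p values, so nothing is read from these counts.

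In cardiomyocytes neither gene passed any test with limma. ENSOARG00000014874 had a change against control of −0.67 ± 0.52 in LAA transition (adjusted p = 0.491), 0.084 in LAA chronic (adjusted p = 0.947), −0.050 in RAA transition (adjusted p = 0.978) and 0.61 in RAA chronic sheep (adjusted p = 0.541). The rise it showed in LAA whole tissue of chronic sheep had no counterpart past the threshold in LAA cardiomyocytes, where the SE was 0.52. The chronic sheep differed in part, with D15 only in whole tissue and D20 only in cardiomyocytes. The lane labels also differ between the preparations. The difference between the tables was not tested. ENSOARG00000018367 had estimates of 0.56 ± 0.33 in LAA transition (adjusted p = 0.362), 0.87 ± 0.33 in LAA chronic (95% interval 0.17 to 1.58, p = 0.0184, limma adjusted p = 0.121), 0.43 in RAA transition (adjusted p = 0.627) and 0.34 in RAA chronic sheep (adjusted p = 0.60). The background was 3.4% of genes called in LAA transition, 7.64% in LAA chronic, 0.652% in RAA transition and 5.16% in RAA chronic cardiomyocytes.

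Between chronic and transition cardiomyocytes ENSOARG00000014874 differed by 0.75 in the LAA (adjusted p = 0.805) and 0.66 in the RAA (adjusted p = 0.688), and ENSOARG00000018367 by 0.31 (adjusted p = 0.892) and −0.090 (adjusted p = 0.953). Limma called 0.00814% of genes on each side. The interactions of ENSOARG00000014874 were −0.62 for transition against control (adjusted p = 0.895), −0.52 for chronic against control (adjusted p = 0.681) and 0.094 for chronic against transition (adjusted p = 0.983). Those of ENSOARG00000018367 were 0.12 (adjusted p = 0.975), 0.53 (adjusted p = 0.499) and 0.40 (adjusted p = 0.844) in the same order. Over all genes 0.358% were called for the chronic against control interaction. For the transition against control and chronic against transition interactions limma and voom called 0%, with 781 and 857 genes at an unadjusted p under 0.05. A pseudocount of 10 CPM called 1 gene for the transition against control interaction.

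**Figure D4:**
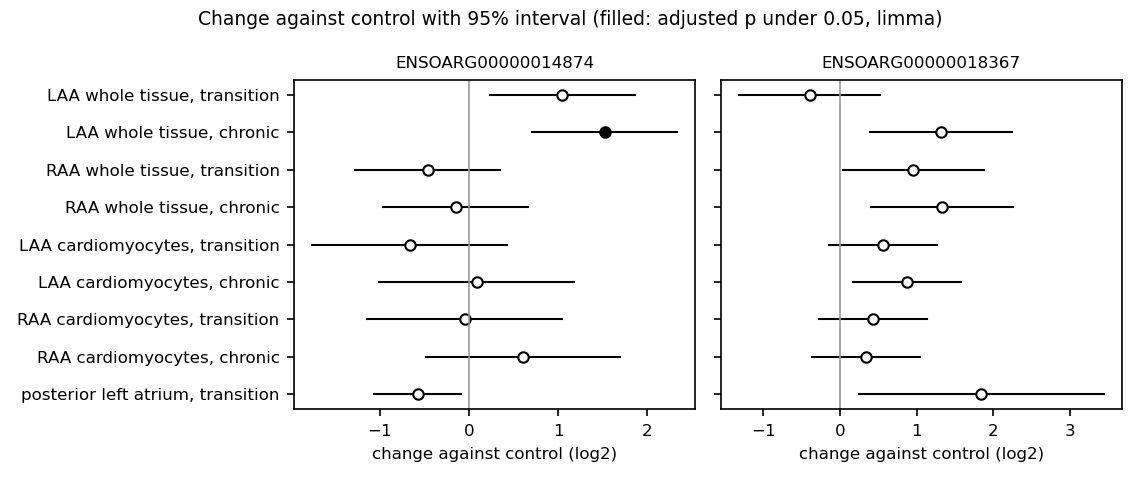
Change against control sheep on the log2 scale with its 95% limma interval, for transition and chronic sheep in each side and preparation and for transition sheep in the posterior left atrium, where a filled point has an adjusted p under 0.05. The only filled point is ENSOARG00000014874 in LAA whole tissue of chronic sheep, at 1.53, and ENSOARG00000018367 has the widest interval in the posterior left atrium, from 0.25 to 3.44.

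In the 7 sheep with both preparations the levels in whole tissue were set beside those in cardiomyocytes. In the LAA the mean level of ENSOARG00000014874 was higher in whole tissue than in cardiomyocytes of the same sheep by 1.14 ± 1.0 on the log2 scale, from −0.18 in S4 to 2.56 in D16. In the RAA it was higher in whole tissue by 3.07 ± 0.64, from 2.45 in D16 to 3.99 in S4, an 8.42-fold difference. The LAA difference ranked 694 from the top of 11796 genes and the RAA difference ranked 13, where the medians of all genes were 0.34 in the LAA and 0.36 in the RAA. Since both preparations came from the same sheep but each table was scaled on its own, these differences carry no test. The RAA values in whole tissue are among those by which the gene was chosen, so nothing is read from its rank. The gap between the RAA and LAA differences restates how its side difference varied between the preparations.

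For ENSOARG00000018367 the mean differences between the preparations were near 0. Whole tissue minus cardiomyocytes was −0.18 ± 0.63 in the LAA and 0.18 ± 0.63 in the RAA, with ranges of −1.09 to 0.81 in the LAA and −0.83 to 0.90 in the RAA over the 7 sheep. It lay below the median of all genes on both sides, and its values for the sheep fell on either side of 0. Which cells of the appendage held either RNA could not be read, because no marker gene could be matched to an ID.

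In the posterior left atrium the estimates of the genes had opposite signs in transition sheep, and neither passed over all genes. Sheep are named by their ID label, and the columns headed S1, S2 and S3 are by that label sheep S3, S4 and C1, all of them controls. ENSOARG00000014874 had 3.29 in D24, 3.41 in D27, 4.05 in G5, 3.12 in G13, 2.94 in G26 and 3.87 in G34 among transition sheep, on the deposited log2 scale. Control sheep had 4.50 in S3, 4.41 in S4, 3.60 in C1, 3.48 in G21, 4.22 in G32 and 4.0 in G36. The groups overlapped, with a median of 3.35 in transition and 4.11 in control sheep. The change was −0.57 ± 0.23 (95% interval −1.06 to −0.085, p = 0.0247, limma adjusted p = 0.0994), in a comparison where 17.5% of genes were called.

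The posterior sheep fall into a set with S, C or D names and a set with G numbers, which was a term of the fit. In the G set every transition sheep has saline in its title and no control does. The state and that label cannot be told apart there. For this term 0.465% of the 12035 genes had a p under 0.1 and 17.7% a p over 0.9. Sets that differ only by chance would put a fraction near 0.1 of all genes under 0.1, which is far more than 0.465%. The deposited sets thus differed less than by chance. Whether a difference between the sets had been taken out before deposit was not tested, and it would bear on the posterior tests. Within the first set the change of ENSOARG00000014874 was −0.82 (adjusted p = 0.184) and within the second −0.40 (adjusted p = 0.465). Leaving out G5 brought the gene past the threshold, at −0.69 (adjusted p = 0.0468). Set beside this, the estimate in LAA whole tissue of transition sheep was 1.05, which did not pass. Of the transition sheep only D24 and D27 are in both regions. The difference between the regions was not tested.

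ENSOARG00000018367 in the posterior left atrium had 6.49 in D24, 4.59 in D27, 6.37 in G5, 5.95 in G13, 5.36 in G26 and 3.32 in G34 among transition sheep. Control sheep had 5.16 in S3, 3.80 in S4, 1.83 in C1, 4.81 in G21, 4.61 in G32 and 1.0 in G36. The groups overlapped, the means were 5.35 ± 1.22 in transition and 3.54 ± 1.72 in control sheep (SD, n = 6 each), and C1 and G36 lay well below the other controls. The change was 1.85 ± 0.74 (95% interval 0.25 to 3.44, p = 0.0264, limma adjusted p = 0.104). It was 1.94 (adjusted p = 0.280) within the sheep with S, C or D names and 1.78 (adjusted p = 0.279) within those with G numbers, and without G34 it passed, at 2.21 (adjusted p = 0.0474).

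**Figure D5:**
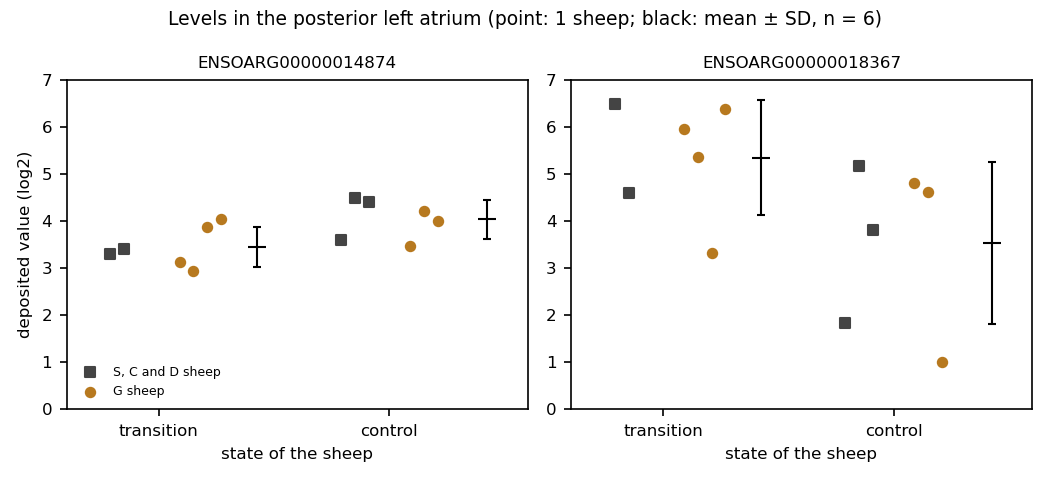
Deposited log2 values of each gene in the posterior left atrium of 6 transition and 6 control sheep, with squares for sheep with S, C or D names, circles for sheep with G numbers and the mean ± SD in black. ENSOARG00000014874 averages 3.45 ± 0.43 in transition and 4.03 ± 0.42 in control sheep, and the ENSOARG00000018367 points spread from 1.0 in G36 to 6.49 in D24.

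Within a side the correlation between the genes had no common sign in the preparations. Across all 18 whole tissue samples the Pearson correlation between them was 0.81, but the samples share the side difference that chose the genes. Over the 9 LAA samples of whole tissue it was 0.50 and over the 9 RAA samples −0.47. In cardiomyocytes it was 0.51 over all 18 samples, −0.50 over the 9 LAA and 0.19 over the 9 RAA samples, and over the 12 posterior samples it was −0.27. Each of these sets of samples pools the states.

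Genes with the most similar pattern were ranked by the smaller of their Pearson correlations with a member over the 18 whole tissue and the 18 cardiomyocyte samples. For ENSOARG00000014874 they were ENSOARG00000020932 (0.91 in whole tissue and 0.86 in cardiomyocytes) and ENSOARG00000008212 (0.89 and 0.81). In the posterior left atrium ENSOARG00000020932 averaged 2.45 ± 0.42 in transition and 3.30 ± 0.68 in control sheep, and ENSOARG00000008212 averaged 0.45 ± 0.62 and 1.39 ± 0.53 in the same groups. Both means were lower in transition sheep, as was that of ENSOARG00000014874. In this comparison limma called 1045 of 12035 genes lower. The share of all genes with a lower mean was not counted, so nothing is read from this agreement.

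For ENSOARG00000018367 the most similar genes were ENSOARG00000019859 (0.83 in whole tissue and 0.93 in cardiomyocytes) and ENSOARG00000020162 (0.77 and 0.79). ENSOARG00000019859 had its lowest levels in the LAA, where whole tissue averaged −1.0, 0.71 and 2.05 log2 CPM in control, transition and chronic sheep, against 10.90, 11.32 and 11.33 in the RAA. ENSOARG00000018367 was present on the left in every library, with a lowest LAA value of 2.25 in whole tissue and 2.85 in cardiomyocytes. ENSOARG00000019859 is not listed for the posterior left atrium. There ENSOARG00000020162 averaged 2.37 ± 0.76 in transition and 2.63 ± 0.42 in control sheep, while the mean of ENSOARG00000018367 was higher in transition sheep. All samples in these correlations share the side split, so the coefficients include it.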

How the data were processed

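The library kit was NEBNext Ultra RNA, per the labels' protocols. Bcl2fastq, cutadapt, RSEM and limma stand in the submitters' processing notes, with no version or role, and no aligner, genome build, annotation or strand setting is given there. The authors deposited log2 values, in 1 column per sheep and region, so sequencing lanes had been merged before deposit. The number of columns without a matching sample was 0. Each of the 237366 whole tissue and 238716 cardiomyocyte values was checked to be the log2 of whole reads, with 0.5 added, over a scaled library size, to within 0.05 reads. The scaling factors were 0.828 to 1.14. Of 1252 low posterior left atrium values 15.8% fell on whole reads, so no reads were recovered there. Why those values are not on whole reads is not recorded. Whether a step before deposit took out a difference between the sets of sheep was not tested. The share of low p for the set is given with the posterior results. Reads that a near-identical or overlapping gene shares with a member cannot be told apart.

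The filter removed genes whose mean log2 value in a table was below 0 and left 12333 genes in whole tissue, 12279 in cardiomyocytes and 12035 in the posterior left atrium. State changes were fitted to every gene with limma (version 3.58.1, under R version 4.3.3), using a mean-variance trend and Benjamini-Hochberg adjustment over all genes. Left and right samples come from the same sheep by their labels, so the sheep was a block, whose estimated correlation was 0.294 for whole tissue and 0.470 for cardiomyocytes. The posterior fit had the set of sheep as a term. The fit was also run on simulated data with known changes, and nothing here rests on its outcome. Alternatives were other scaling, no filter, a pseudocount of 10 CPM, voom weights on the recovered reads, no block, each appendage alone, and each sheep left out. Besides the 2 members, the text names for each the 2 genes of most similar pattern. The members and lists were chosen with earlier results of these data known. Lists of cell type markers could not be used, since 0 of 13803 IDs matched the reference table of names.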

Additional observations from a re-analysis of the deposited data

How the results depend on the processing

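The analysis held 38 tested results, with the interactions counted among them, and 4 side differences with no test. Under another setting 607 of their values stayed the same, 28 changed sign, 3 came past the threshold, 3 lost it and 1 moved. For a tested result the same means its direction and side of the threshold. For a side difference it means its direction and a move of less than its SD over sheep. The rise of ENSOARG00000014874 in LAA whole tissue of chronic sheep stayed past the threshold under all 7 other settings, at 0.97 to 1.58 (adjusted p 0.0173 to 0.0497). With the sheep block left out it was 1.53 (adjusted p = 0.0173), and leaving out the block changed no other call. With 1 sheep left out it was 1.13 to 1.96 (adjusted p 0.0112 to 0.0985). The LAA whole tissue change of ENSOARG00000018367 in chronic sheep was 1.06 to 1.72 with 1 sheep left out, and the posterior left atrium changes were −0.71 to −0.49 for ENSOARG00000014874 and 1.21 to 2.21 for ENSOARG00000018367. With a pseudocount of 10 the cardiomyocyte side difference of ENSOARG00000014874 was −0.45, which counts as the same. That of ENSOARG00000018367 was −1.47, which is the 1 value that moved. Another 12 results changed sign somewhere, none of which passed, and the cause was not tested. For ENSOARG00000014874 in cardiomyocytes the LAA chronic change was −0.030 with library totals and −0.00099 with the pseudocount, and the chronic against transition interaction was −0.036 and −0.070. Its RAA transition change there was 0.0048 with the pseudocount and 0.044 with voom. For ENSOARG00000018367 the transition interaction in cardiomyocytes was −0.065 with the pseudocount, and the chronic interaction in whole tissue 0.0042 with median-of-ratios scaling. With 1 sheep left out, ENSOARG00000014874 in cardiomyocytes ran from −0.40 to 0.42 for the LAA chronic change, −0.46 to 0.35 for the RAA transition change, −1.11 to 0.0062 for the chronic interaction, −1.23 to 0.11 for the transition interaction and −0.64 to 0.70 for the chronic against transition interaction. In whole tissue it ran from −0.46 to 0.0072 for the RAA chronic change and −0.24 to 0.71 for the chronic against transition interaction. ENSOARG00000018367 in cardiomyocytes ran from −0.0042 to 0.61 for the RAA chronic change, −0.24 to 0.19 for chronic against transition in the RAA and −0.15 to 0.45 for the transition interaction. In whole tissue it ran from −0.83 to 0.0080 for the LAA transition change and −0.58 to 0.55 for the chronic interaction. Ranking similar genes by their side difference over 9 sheep put other genes first for both members. Depth limits ENSOARG00000014874 most in LAA cardiomyocytes, where its fewest reads were 29.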
